A study of Mus musculus with 9 samples.

Results

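Newborn neurons (N) were compared with proliferative progenitors (PP), the cell types at either end of the neurogenic lineage, across all circRNAs counted in the mouse cortex at embryonic day 14.5. The comparison used 3 libraries of N and 3 of PP, biological replicates for which pooling of embryos is not stated, out of the 9 of the series, the others being differentiative progenitors (DP), and 5254 of the 5281 circRNAs of the table. The 27 entries left out were CiCo_mm9_circ_004999 and 26 entries on chromosome 17, the outermost ends of which are positions 39979944 and 39985671 (mm9). They were removed before any scaling. The embryos were C57BL/6 mice that carried a pair of reporters, RFP under Btg2 and GFP under Tubb3, and cells of the lateral cortex were sorted by their fluorescence. PP were negative for RFP and for GFP, DP were positive for RFP alone, and N were all cells with GFP, whether or not they held RFP. A group is therefore defined by reporter protein and not by marker genes, and N pools every GFP-positive neuron type of the dissected tissue.

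PP are mostly radial glia, the dividing cells that line the ventricle and give rise to cortical neurons, whereas N have left the cell cycle, migrate outwards and begin to grow axons. A circRNA forms when the spliceosome joins the end of an exon to the start of the same or an earlier exon of one transcript, a backsplice, and the closed circle resists exonucleases. The authors therefore digested linear RNA with RNase R before sequencing. Reads were counted over all sequence of a circRNA that passed an expression threshold, introns included, and not at the backsplice alone. The counted length of a circRNA can therefore exceed that of its exons, circRNAs of one gene that overlap share reads, and linear or unspliced RNA left after digestion would be counted too.

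Outside the entries left out, the PP libraries held 124283, 198114 and 83572 counts and the N libraries 102958, 287983 and 219455 counts. These are 1.78% to 5.35% of all counts over the 9 libraries. Levels are given as CPM, counts scaled by TMM to a common total (counts per 1000000 counts). That total covers the circRNAs with enough counts to be tested. A group without any count lies under a floor of 3 counts over its libraries together, which is 7.17 CPM in PP and 5.11 CPM in N (counting error only). PP replicate 3 and N replicate 1 stood apart from their replicates. Across circRNAs, which are not independent, Spearman's correlation was 0.713 and 0.703 between PP replicate 3 and the other PP libraries, against 0.922 between those. For N replicate 1 the values were 0.794 and 0.831, where N replicates 2 and 3 had 0.947. Both libraries were kept, and where counts of calls changed most without them, those are given too.

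The marker genes followed the sort. Their lists were chosen with earlier results of these data known, so this is no independent check of it. Of 22 genes in a list of radial glia and progenitor markers with a tested circRNA, the most abundant circRNA was lower in N for 19 and higher for 1. Of 32 newborn neuron marker genes it was higher in N for 26 and lower for none. Summed over all their circRNAs, the progenitor markers had 55185, 62014 and 49206 CPM in PP and 9479, 7161 and 7433 CPM in N. The neuron markers had 12666, 13182 and 11212 CPM in PP and 65459, 57688 and 61105 CPM in N, and in neither list did the libraries of the cell types overlap. Much of the progenitor sum came from Cdon, which had 8 tested circRNAs, several of which overlap and share reads. CiCo_mm9_circ_006580 of Cdon alone had 9739, 11727 and 7813 CPM in PP and 1100, 704 and 802 CPM in N. Tubb3 and Btg2, whose reporters defined the sort, and Sox2, Pax6, Hes5, Eomes, Nes, Dcx and Tbr1 have no circRNA in the table.

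**Figure D1:**
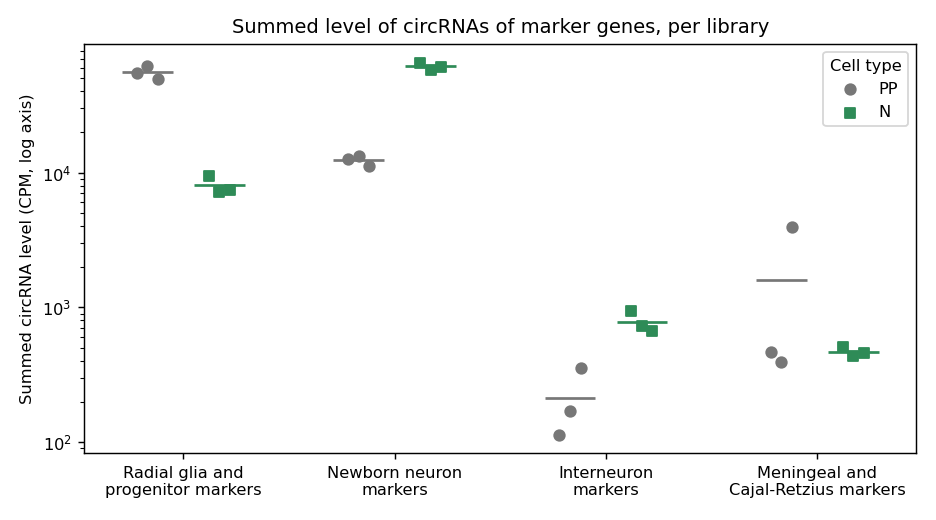
Summed level (CPM, log axis) of the circRNAs of 4 lists of marker genes in each PP library (grey circles) and each N library (green squares), with lines at the means of 3 libraries. Progenitor markers lie between 49206 and 62014 CPM in PP and between 7161 and 9479 CPM in N, neuron markers the other way round, and PP replicate 3 stands alone at 3967 CPM for the meningeal and Cajal-Retzius list. Overlapping circRNAs of Cdon make up much of the progenitor sum.

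Markers of other cell types were few. None of 36 endothelial and mural genes has a circRNA in the table. Of 29 microglia and blood genes 2 have one, and only Epb4.1, which many tissues express, was tested, with 6 circRNAs of which none was called. The list had 3592, 3287 and 2437 CPM in PP and 1871, 2213 and 1870.1 CPM in N. Without PP replicate 3 and N replicate 1, 5 of these 6 circRNAs of Epb4.1 were lower in N, where 20.8% of all tested circRNAs were lower. Of 12 oligodendrocyte genes only Bcas1 has one, with no count in PP or N. Interneuron genes, of which 4 of 27 are in the table, had 113, 169.5 and 352 CPM in PP and 935, 728 and 664 CPM in N. Of 5 tested circRNAs 4 were higher in N, against 14.3% of all tested circRNAs. That of Prox1 was not called (log2 FC -1.22, adjusted p = 0.2 in edgeR's test). Without N replicate 2 it was called lower (log2 FC -2.72, adjusted p = 0.0398). Gad1 and Dlx1 have no circRNA in the table. The meningeal and Cajal-Retzius list, of which 2 of 21 genes are in the table, had 469, 391 and 3967 CPM in PP and 506, 438 and 460.4 CPM in N. These markers moved in opposite directions. The circRNA of Reln, which Cajal-Retzius neurons secrete, had 0, 4.71 and 0 CPM in PP and 152, 185 and 171 CPM in N, a ratio of 73.5 (95% counting interval 12.9 to 2929) over 1 count in PP. The circRNA of Fbln1, an extracellular matrix protein, had 431, 329.7 and 3967 CPM in PP and 354, 236 and 285 CPM in N, so that its lower level in N (log2 FC -2.42, SE 0.74, adjusted p = 0.0235) rested on PP replicate 3, the other libraries of both cell types overlapping (log2 FC -0.39, adjusted p = 0.307 without it). The call was lost too without each N replicate in turn (adjusted p between 0.0827 and 0.123 in edgeR's test). The part of such cells in the results was not tested. In sorted populations measured in bulk, fewer cells that carry a circRNA and less of it per cell cannot be told apart.

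Of the 5254 circRNAs, 4389 had enough counts to be tested and 865 did not. A total of 627 were higher in N (14.3% of those tested) and 656 were lower (14.9%), together 29.2%, with a Benjamini-Hochberg threshold of 0.05 on the p of the quasi-likelihood test of edgeR. The median log2 FC was 1.94 over the circRNAs called higher, -2.20 over those called lower, and -0.10 over all tested. A change of at least 3 on the log2 scale was reached by 146 of the former and 221 of the latter, with circRNAs that had no count in a cell type taken at their bound. The 3 N values lay all above the 3 PP values for 18% of the tested circRNAs and all below for 19.4%, and 1185 of the called circRNAs (92.4%) had libraries that did not overlap. This holds for each called circRNA named below unless an overlap is stated. Without PP replicate 3 and N replicate 1, 1053 of 4706 tested circRNAs were higher (22.4%) and 979 lower (20.8%). With the N and PP libraries alone, without DP in the estimate of the spread, 412 were higher and 372 lower of 3506 tested. With the left-out entries kept and scaling by total counts, 210 were higher and 439 lower, which puts 32.4% of the calls on the side of N where the scaling used here puts 48.9%, and the median log2 FC of all tested moved to -0.37. Among the circRNAs named below, CiCo_mm9_circ_000430 of Agap1 and those of Apc, Cask, Ccdc107, Gpr161, Kdm5b, Ncan, Nf2, Phf21b, Sorbs2, Vcan and Xpo1 lost their call under that scaling (adjusted p between 0.0537 and 0.466), and their direction did not change.

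**Figure D2:**
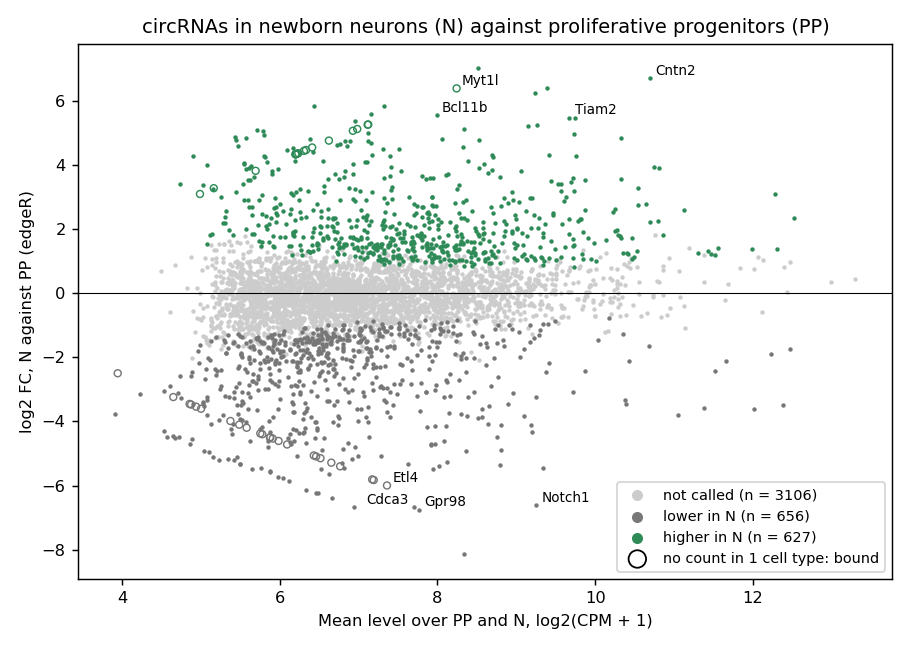
log2 FC of N against PP (y axis) by mean level over both cell types, log2(CPM + 1) (x axis), for the 4389 tested circRNAs, with those higher in N in green, lower in N in dark grey and not called in light grey. Open circles mark circRNAs without a count in one of the cell types, drawn at the bound set by the floor of 3 counts, and calls are found over the whole range of levels.

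CircRNAs are defined by their backsplice, and the sequences below show the joins of 4 in each direction, as they would be read across the closed circle. Coordinates are on mm9, and exons are numbered along the GENCODE vM1 transcript. Each line gives the last 20 bases of the circle in lower case, then its first 20 bases in capitals, 5′ to 3′ on the transcript strand, and all these bases are coding sequence. The first 4 lines are circRNAs higher in N, the others lower. They are the largest changes in each direction among called circRNAs whose PP and N libraries did not overlap and whose mean level over all 9 libraries, DP included, was at or above the median, with 1 circRNA per gene. Without the limit on level larger fitted changes are found, such as those of Hecw1, Ank3, Lfng and Plce1 given further on.
Myt1l (chr12:30517153-30540148, plus strand, exons 11 to 18): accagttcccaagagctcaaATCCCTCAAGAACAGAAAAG
Cntn2 (chr1:134421884-134423040, minus strand, exons 8 to 10): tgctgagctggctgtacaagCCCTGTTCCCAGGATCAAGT
Bcl11b (chr12:109203882-109204097, minus strand, exon 3): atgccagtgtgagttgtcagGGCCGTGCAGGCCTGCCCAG
Tiam2 (chr17:3437228-3454351, plus strand, exons 7 to 14): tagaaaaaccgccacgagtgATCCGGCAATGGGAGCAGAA
Etl4 (chr2:20583525-20635075, plus strand, exons 4 to 6): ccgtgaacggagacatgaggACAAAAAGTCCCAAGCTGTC
Gpr98 (chr13:81557995-81583577, minus strand, exons 64 to 74): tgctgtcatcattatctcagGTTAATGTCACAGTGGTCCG
Cdca3 (chr6:124781380-124782687, plus strand, exons 3 to 5): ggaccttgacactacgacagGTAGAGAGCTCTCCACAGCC
Notch1 (chr2:26339788-26340969, minus strand, exons 3 to 4): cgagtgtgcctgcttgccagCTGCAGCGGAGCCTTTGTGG

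Of the circRNAs chosen in this way, those higher in N are described first. CiCo_mm9_circ_001320 of Myt1l, a transcription factor of neurons, had 0, 0 and 0 CPM in PP and 506, 694 and 612 CPM in N, at least 84.2-fold higher in N against the floor over the PP libraries (adjusted p = 3.48e-06 in edgeR's test). It was absent from the counts of all PP libraries, while its N libraries lay close to each other. CiCo_mm9_circ_000064 of Cntn2, an adhesion molecule of axons, had 30.2, 33.0 and 27.1 CPM in PP and 3564, 2718 and 3569 CPM in N (log2 FC 6.71, SE 0.45, adjusted p = 1.14e-06). CiCo_mm9_circ_001253 of Bcl11b, a transcription factor of deep-layer projection neurons, is a single exon and had 15.1, 9.42 and 0 CPM in PP and 885, 195 and 413 CPM in N (log2 FC 5.55, SE 0.82, adjusted p = 0.000189). For Cntn2 the N libraries differed little, whereas for Bcl11b they spread widely, with N replicate 1 highest. CiCo_mm9_circ_002570 of Tiam2, an exchange factor for the GTPase Rac, had 30.2, 42.4 and 27.1 CPM in PP and 2022, 1442 and 1329 CPM in N (log2 FC 5.48, SE 0.40, adjusted p = 1.14e-06). The circRNAs of Nrxn2, a presynaptic adhesion molecule, Kif21b, a kinesin, and Nav1, a microtubule-associated protein, rose by 5.12 ± 0.47, 4.98 ± 0.50 and 4.83 ± 0.54 on the log2 scale (± SE). Those of Bai1, an adhesion receptor, Crmp1, which relays semaphorin signals, and Prkce, a protein kinase C, rose by between 4.28 and 4.49. Fam190a and Dcc, the netrin receptor, rose by 4.32 and 4.13. N replicate 1 was the highest N library for most of these circRNAs. In none of them did an N library come down to the level of a PP library, which was a criterion of the choice.

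**Figure D3:**
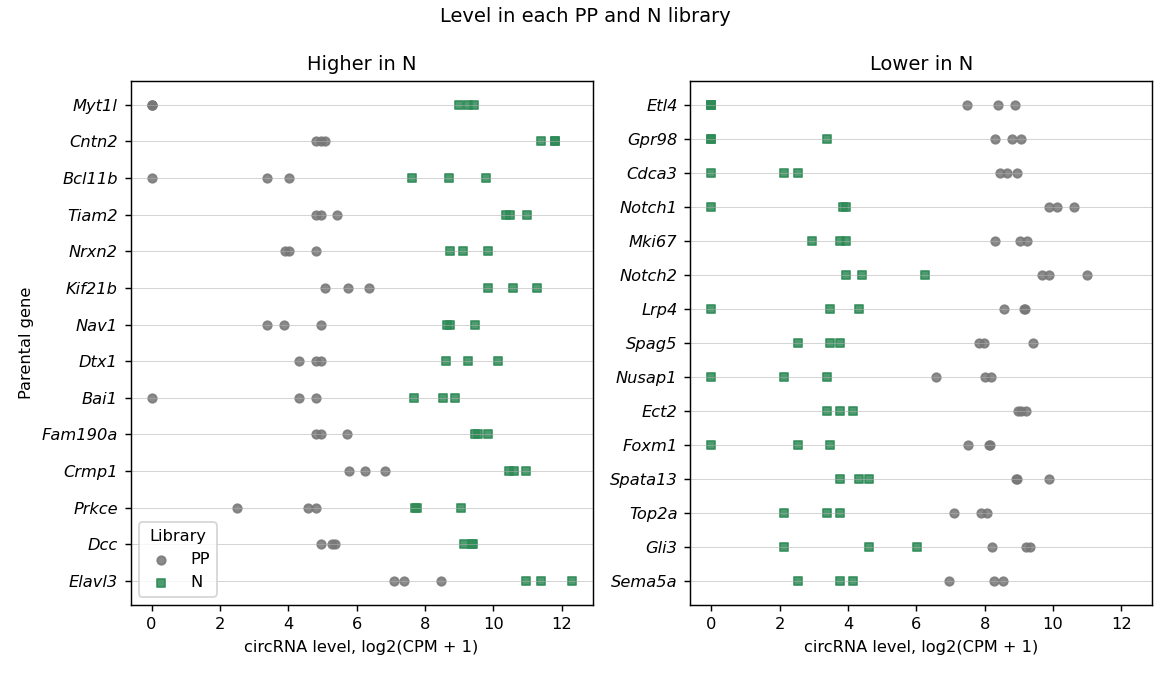
Level, log2(CPM + 1), of 14 circRNAs higher and 15 lower in N, those with the largest changes among circRNAs at or above the median level over all 9 libraries, in the PP libraries (grey circles) and N libraries (green squares), 1 circRNA per parental gene. The cell types do not overlap in any row, which was a criterion of the choice, and points at 0 are libraries without a count.

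The circRNAs lower in N were chosen by the same rule. CiCo_mm9_circ_003631 of Etl4 had 333, 471 and 176 CPM in PP and 0, 0 and 0 CPM in N, at least 63.9-fold lower in N against the floor over the N libraries (adjusted p = 1.55e-05). CiCo_mm9_circ_001695 of Gpr98, a very large adhesion receptor, had 446, 532 and 311 CPM in PP and 0, 0 and 9.49 CPM in N, a ratio of PP to N of 137 (95% counting interval 37.3 to 1137) over 2 counts in N. CiCo_mm9_circ_005327 of Cdca3, a trigger of mitotic entry, had 348, 405 and 487 CPM in PP and 0, 3.37 and 4.75 CPM in N, a ratio of 118 (95% counting interval 32.1 to 981), again over 2 counts. In each of these cases the N libraries were at or near 0 and all PP libraries were well above the floor. CiCo_mm9_circ_003686 of Notch1, the receptor that keeps radial glia undifferentiated, had 1104, 937 and 1571 CPM in PP and 0, 13.5 and 14.2 CPM in N (log2 FC -6.61, SE 0.51, adjusted p = 1.23e-06). The circRNAs of Mki67, a marker of cycling cells, Spag5, a protein of the spindle, Ect2, an exchange factor of cytokinesis, Foxm1, a transcription factor of mitotic genes, and Top2a, a topoisomerase, fell, with log2 FC between -5.47 and -4.87. That of Nusap1, a further spindle protein, had 257, 292 and 94.8 CPM in PP and 0, 3.37 and 9.49 CPM in N, a ratio of 48.1 (95% counting interval 16.0 to 237) over 3 counts. Those of Lrp4, a lipoprotein receptor family member, Spata13, a GTPase exchange factor, Gli3 and Sema5a fell as well, with log2 FC between -5.38 and -4.48. All 29 circRNAs in the plot of named levels kept their call and direction in each of the 22 alternatives that tested them.

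The signalling pathways known from progenitors differed in how many of their members changed. Notch receptors signal between neighbouring cells, and Lfng modifies their response to ligands. Of 41 tested circRNAs of Notch pathway genes, 8 were lower and 2 higher in N, the former not far from and the latter below the share of all tested circRNAs, with a median log2 FC of -0.17. CiCo_mm9_circ_004213 of Notch2 had 923, 895 and 785 CPM in PP and 25.3, 23.6 and 14.2 CPM in N (log2 FC -5.37, SE 0.37, adjusted p = 1.14e-06). The circRNA of Lfng had 113, 94.2 and 663 CPM in PP and 0, 0 and 0 CPM in N, at least 56.8-fold lower in N for the PP mean of 290 CPM (adjusted p = 0.000988). PP replicate 3 had the highest value and carried much of that mean, so that the bound would be smaller without it. The circRNA of Dtx1, a regulator of Notch receptors, had 30.2, 18.8 and 27.1 CPM in PP and 1125, 394 and 612 CPM in N and was higher in N (log2 FC 4.80, SE 0.51, adjusted p = 1.29e-05).

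Hedgehog signalling, which acts through the primary cilium and the Gli transcription factors, had 19 of 45 tested circRNAs lower and 2 higher, 42.2% and 4.44% against 14.9% and 14.3% of all tested circRNAs, with a median of -0.75. These 19 came from 6 genes, so that few genes carry the count. CiCo_mm9_circ_006578 of Cdon, a co-receptor for hedgehog ligands, had 5044, 5689 and 4035 CPM in PP and 493, 391 and 365 CPM in N (log2 FC -3.58, SE 0.34, adjusted p = 5.74e-06). CiCo_mm9_circ_001571 of Gli3, a transcription factor of the pathway, had 809, 989 and 718 CPM in PP and 63.2, 26.9 and 66.4 CPM in N (log2 FC -4.10, SE 0.40, adjusted p = 6.5e-06), and Boc, the co-receptor related to Cdon, fell by 2.01 ± 0.47. The circRNA of Gpr161, a ciliary receptor that dampens the pathway, rose instead, with 129, 122 and 162 CPM in PP and 442, 411 and 555 CPM in N (log2 FC 1.80, SE 0.31, adjusted p = 0.000512).

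In the Hippo pathway, which restrains the transcriptional coactivator Yap1, 6 of 38 tested circRNAs were lower and 5 higher (median -0.10), a share near that of all circRNAs. The circRNAs of Yap1 and of its DNA-binding partner Tead2 fell, Tead2 with 673, 725 and 704 CPM in PP and 88.5, 37.1 and 38.0 CPM in N (log2 FC -3.86, SE 0.38, adjusted p = 7.9e-06) and Yap1 with a log2 FC of -4.27 ± 0.51. The circRNA of Nf2, the upstream suppressor merlin, rose, with 121, 188 and 135 CPM in PP and 367, 320.0 and 356 CPM in N (log2 FC 1.19, SE 0.30, adjusted p = 0.00775). For Tead2 and Yap1 every PP library was above every N library, and for Nf2 the reverse. Growth factor receptors and adaptors had 12 of 75 higher and 11 lower (median 0.03), near the share of all tested circRNAs in each direction. Kit, a receptor tyrosine kinase, had 15.1, 14.1 and 13.5 CPM in PP and 228, 253 and 285 CPM in N (log2 FC 4.11, SE 0.42, adjusted p = 1.02e-05), and the neurotrophin receptor Ntrk3 rose by 2.62 ± 0.47. Grb10, an adaptor that dampens insulin receptor signalling, had 983, 801 and 649.9 CPM in PP and 101, 6.74 and 38.0 CPM in N (log2 FC -4.48, SE 0.58, adjusted p = 5.67e-05). Without PP replicate 3 and N replicate 1, 22 of the 77 tested receptor circRNAs were higher and 15 lower, and for the Hippo pathway 9 of 40 were higher and 8 lower. For Wnt signalling and planar polarity, 7 of 49 were higher, the share of all tested circRNAs, and 4 lower, below that share (median -0.10), with Apc, the scaffold of beta-catenin degradation, at 1.62 and Celsr1, a cadherin of planar polarity, at -3.25.

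Radial glia are held at the ventricle by apical junctions, and 30 of 71 tested circRNAs of junction and polarity genes were lower in N against 9 higher (median -1.11), the former above and the latter near the share of all tested circRNAs. The alpha-catenins, which tie cadherins to actin, moved in opposite directions. CiCo_mm9_circ_002958 of Ctnna1, the epithelial form, had 371, 226 and 298 CPM in PP and 12.6, 37.1 and 23.7 CPM in N (log2 FC -3.38, SE 0.40, adjusted p = 3.16e-05). CiCo_mm9_circ_005531 of Ctnna2, the neuronal form, had 52.9, 61.2 and 67.7 CPM in PP and 240.1, 525 and 384 CPM in N (log2 FC 2.71, SE 0.39, adjusted p = 0.000122). Each form was thus high in the cell type where the other was low, and the libraries overlapped for neither. Pvrl3, a nectin, and Magi1, a scaffold of tight junctions, fell (log2 FC -2.25 ± 0.36 and -1.95 ± 0.35), and Mark4, a polarity kinase, and Cask, a membrane scaffold, rose by 2.78 ± 0.51 and 2.36 ± 0.52. Extracellular matrix and integrin genes had 10 of 40 higher and 11 lower (median -0.03), 25% and 27.5% against 14.3% and 14.9% of all tested circRNAs. The proteoglycans Vcan and Ncan rose by 1.80 ± 0.38 and 1.58 ± 0.40, and Ndst3, which sulfates heparan chains, had no count in PP and was at least 14.2-fold higher in N. Tns3 and Tns1, tensins that link integrins to actin, had 1 and 3 counts in N, with ratios of PP to N of 96.7 (95% counting interval 16.8 to 3876) and 33.7 (95% counting interval 11.1 to 167). Vcan stood in the list of progenitor markers, of which it was the only gene with a circRNA called higher in N.

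Of 127 tested circRNAs of axon guidance and neuronal adhesion genes, 63 were higher in N against 10 lower (median 1.12), 49.6% and 7.87% against 14.3% and 14.9% of all tested circRNAs. Besides Cntn2 and Crmp1, the list held Dcc with 30.2, 37.7 and 40.6 CPM in PP and 569, 660.2 and 674 CPM in N (log2 FC 4.13, SE 0.37, adjusted p = 4.97e-06). All N libraries of Dcc lay close together, far above PP. Sema5a and Sema5b, which are transmembrane semaphorins, were lower in N. CiCo_mm9_circ_002038 of Sema5a had 371, 306 and 122 CPM in PP and 12.6, 16.8 and 4.75 CPM in N (log2 FC -4.48, SE 0.53, adjusted p = 3.16e-05), and Sema5b fell by 2.69 ± 0.36. The adhesion molecule Igsf11 fell by 3.60 ± 0.72 too.

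Of 121 tested circRNAs of microtubule motors and the neuronal cytoskeleton, 33 were higher and 19 lower (median 0.43), the former (27.3%) above the 14.3% of all tested circRNAs and the latter (15.7%) near their 14.9%. CiCo_mm9_circ_000359 of Mtap2, the dendritic microtubule protein MAP2, had 227, 235 and 122 CPM in PP and 1833, 2873 and 2397 CPM in N (log2 FC 3.56, SE 0.36, adjusted p = 8.32e-06). CiCo_mm9_circ_000632 of Ank3, ankyrin-G of the axon initial segment, had 0, 0 and 0 CPM in PP and 265, 236 and 223 CPM in N, at least 33.7-fold higher in N (adjusted p = 1.38e-05). For Mtap2 every N library lay above every PP library, and Ank3 was without a count in PP and present in every N library. Of the kinesins named by the rule, CiCo_mm9_circ_000078 of Kif21b rose by 4.33 ± 0.39 and Kif23, a motor of cytokinesis, fell by 3.56 ± 0.41. Kif2c, which depolymerizes spindle microtubules, had 1 count in N and a ratio of PP to N of 71.5 (95% counting interval 12.3 to 2879), and Nde1, a dynein regulator of progenitor mitosis, fell by 3.60 ± 0.46. Regulators of actin and small GTPases had 38 of 153 higher and 27 lower (median 0.17), again above the share of all tested circRNAs for those higher (24.8%) and near it for those lower (17.6%). Evl, which extends actin filaments, had 106, 155 and 40.6 CPM in PP and 1011, 512 and 636 CPM in N (log2 FC 2.69, SE 0.41, adjusted p = 0.000189). Racgap1, the partner of Kif23 in cytokinesis, had 665, 617 and 853 CPM in PP and 152, 67.4 and 90.2 CPM in N (log2 FC -2.88, SE 0.36, adjusted p = 4.81e-05), and Dock1, a Rac exchange factor, fell by 4.27 ± 0.52. Membrane traffic had 33 of 203 higher and 15 lower (median 0.22), the former near the share of all tested circRNAs and the latter below it. Itsn1, a scaffold of endocytosis, had 181, 151 and 135 CPM in PP and 1239, 805 and 816 CPM in N (log2 FC 2.58, SE 0.33, adjusted p = 4.81e-05), and Snap91, a clathrin adaptor of neurons, rose by 3.81 ± 0.50. Snx5, a sorting nexin, fell by 2.46 ± 0.37. Without PP replicate 3 and N replicate 1, 58 of 122 microtubule circRNAs were higher and 27 lower, and 68 of 227 traffic circRNAs were higher and 23 lower.

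Transcription factors of neural development had 40 of 162 circRNAs higher and 37 lower (median 0.02), a larger share in each direction than among all circRNAs. Runx1t1, a transcriptional corepressor, had 15.1, 28.3 and 122 CPM in PP and 645, 741 and 655 CPM in N (log2 FC 3.92, SE 0.51, adjusted p = 5.45e-05). Runx1t1 was highest among the PP libraries in PP replicate 3, but far below every N library. Of those that fell, Tox3, a nuclear factor with an HMG box, had 386, 466 and 393 CPM in PP and 37.9, 53.9 and 47.5 CPM in N (log2 FC -3.09, SE 0.33, adjusted p = 1.29e-05). Chromatin regulators had 19 of 359 higher and 45 lower (median -0.26), the former below the share of all tested circRNAs and the latter near it (47 higher and 76 lower of 370 without PP replicate 3 and N replicate 1). Prdm16, a methyltransferase family member of radial glia, had 371, 353 and 582 CPM in PP and 50.6, 16.8 and 19.0 CPM in N (log2 FC -4.16, SE 0.44, adjusted p = 1.36e-05), and Hells, a chromatin remodeller of dividing cells, fell by 4.11 ± 0.59. Phf21b and Kdm5b, a histone demethylase, rose by 2.04 ± 0.45 and 1.75 ± 0.39.

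RNA-binding proteins had 23 of 238 higher and 13 lower (median -0.21), a smaller share than among all circRNAs. Without PP replicate 3 and N replicate 1, 38 of 248 were higher and 40 lower. CiCo_mm9_circ_006536 of Elavl3, which stabilizes neuronal transcripts, had 151, 184 and 352 CPM in PP and 5258, 2055 and 2743 CPM in N (log2 FC 3.91, SE 0.47, adjusted p = 3.36e-05). Nova2, a splicing factor of neurons, had 75.6, 98.9 and 257 CPM in PP and 2629, 741 and 1168 CPM in N (log2 FC 3.48, SE 0.53, adjusted p = 0.000214), and Tnrc6c, a partner of Argonaute, had 635, 645 and 609 CPM in PP and 4234, 3095 and 4205 CPM in N (log2 FC 2.61, SE 0.33, adjusted p = 4.81e-05). For Elavl3 and Nova2 the highest N library was replicate 1. Ptbp1, a repressor of neuronal exons, had 461, 447 and 230.2 CPM in PP and 177, 64.0 and 147 CPM in N (log2 FC -1.68, SE 0.40, adjusted p = 0.00516), and Qk, an RNA-binding protein of glia, fell by 3.01 ± 0.41.

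**Figure D4:**
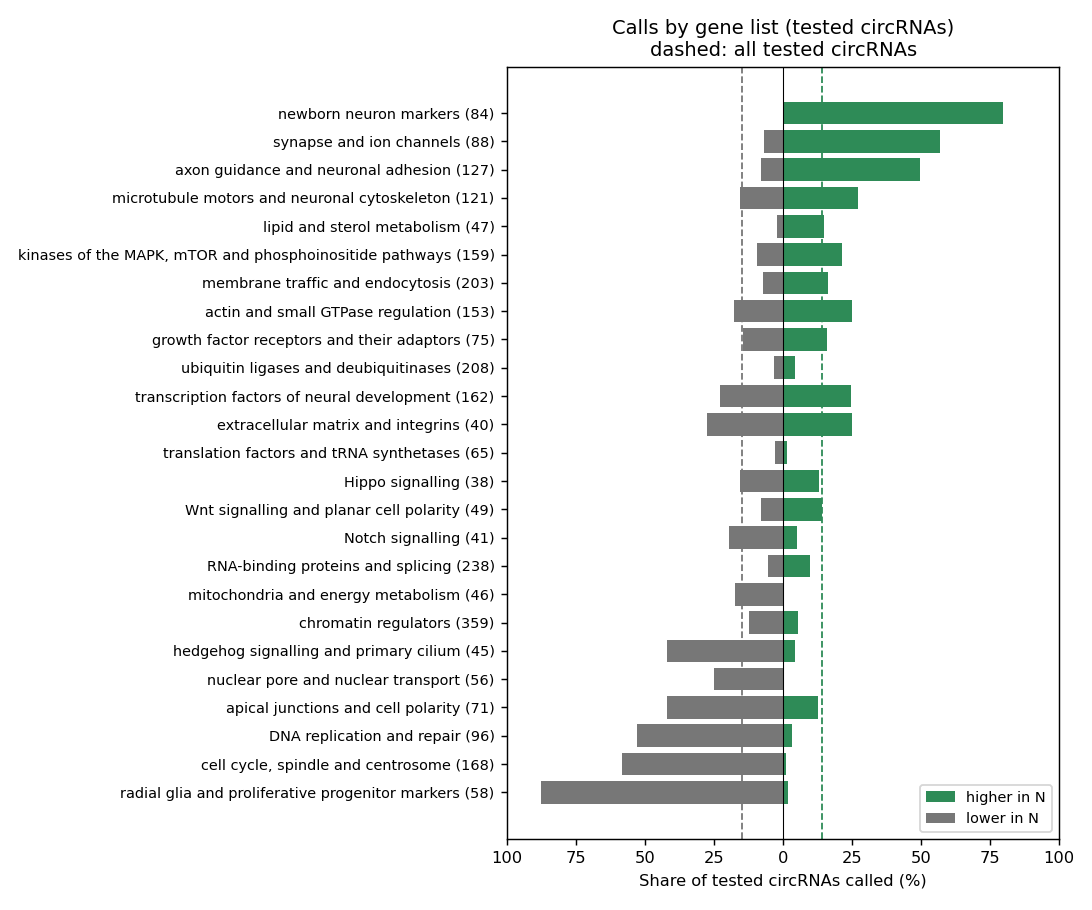
Share of the tested circRNAs of each gene list called higher in N (green, to the right) or lower in N (grey, to the left), in percent, for lists with at least 30 tested circRNAs (number in parentheses), ordered by median log2 FC. Dashed lines mark all 4389 tested circRNAs (14.3% higher, 14.9% lower). Among the bars that pass the green line are those of neuron markers, synapse and axon guidance genes. Among those that pass the grey line are progenitor markers, cell cycle, DNA replication, junction and hedgehog genes. Bars of matrix and transcription factor genes, among others, pass both lines.

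Among genes of transport, metabolism and signalling enzymes, the calls differed from list to list. No circRNA of 56 from nuclear pore and transport genes was higher and 14 were lower (median -0.78), 25% against 14.9% of all tested circRNAs, from 5 genes, with the exportin Xpo1 at 589.8, 664 and 474 CPM in PP and 240.1, 296 and 266 CPM in N (log2 FC -1.10, SE 0.29, adjusted p = 0.00928), a call lost without N replicate 3 (log2 FC -1.07, adjusted p = 0.052). No circRNA of 46 from mitochondrial and energy metabolism genes was higher and 8 were lower (median -0.25), the latter near the share of all tested circRNAs. Without PP replicate 3 and N replicate 1, 2 of 54 were higher and 10 lower. Among those lower were enzymes of glycolysis, Ldha with 892, 805 and 894 CPM in PP and 455, 273 and 275 CPM in N (log2 FC -1.40, SE 0.32, adjusted p = 0.00426) and Hk2 with 189, 184 and 366 CPM in PP and 114, 23.6 and 42.7 CPM in N (log2 FC -2.29, SE 0.52, adjusted p = 0.00429). For both enzymes all PP libraries were above all N libraries, by little in the case of N replicate 1 for Hk2. Lipid and sterol genes had 7 of 47 higher and 1 lower (median 0.34), a share of higher ones near that of all tested circRNAs. The one that was lower was that of Lbr, a sterol reductase of the nuclear envelope, at -3.01. Kinases and phosphatases of the MAPK, mTOR and phosphoinositide pathways had 34 of 159 higher and 15 lower (median 0.25), 21.4% and 9.43% against 14.3% and 14.9% of all tested circRNAs. The stress-activated kinase Mapk8 had 75.6, 56.5 and 108 CPM in PP and 834, 428 and 418 CPM in N (log2 FC 2.85, SE 0.41, adjusted p = 0.000119), and Plce1, a phospholipase C, had 1 count in N and a ratio of PP to N of 129 (95% counting interval 22.6 to 5149.7). Ubiquitin ligases and deubiquitinases had 9 of 208 higher and 7 lower (median 0.02), 4.33% and 3.37%, below the share of all tested circRNAs in each direction. Within this list the circRNA of Hecw1, a ligase of neurons, had 0, 0 and 0 CPM in PP and 177, 317 and 332 CPM in N, at least 38.4-fold higher in N (adjusted p = 1.82e-05), and Nedd4 fell by 1.53 ± 0.31. Translation factors and tRNA synthetases had 1 of 65 higher and 2 lower (median -0.09), 1.54% and 3.08%, below that share as well. For comparison, cell cycle genes had 2 of 168 higher and 98 lower, DNA replication and repair genes 3 of 96 higher and 51 lower, and synapse and channel genes 50 of 88 higher and 6 lower. Of the 4 basal progenitor genes with tested circRNAs, 1 was called in each direction, Rhbdl3, a rhomboid protease, lower with 507, 363 and 636 CPM in PP and 164, 101 and 109 CPM in N (log2 FC -2.05, SE 0.35, adjusted p = 0.000501) and Sorbs2, an actin adaptor, higher by 1.53 ± 0.40. Elavl4, a neuronal RNA-binding protein, was called higher without N replicate 1 (log2 FC 0.97, adjusted p = 0.0104), and without PP replicate 3 and N replicate 1 together 2 of 6 circRNAs of the list were higher and 3 lower, the latter including that of Mfng, a modifier of Notch (log2 FC -1.30, adjusted p = 0.0381), which was called lower under scaling by total counts too (log2 FC -1.64, adjusted p = 0.0424). Several of these counts changed without PP replicate 3 and N replicate 1, where 22.4% of all tested circRNAs were higher and 20.8% lower. Then 36 of 221 ubiquitin circRNAs were higher and 15 lower, 58 of 164 kinase circRNAs higher and 19 lower, 2 of 59 nuclear pore circRNAs higher and 28 lower, and 7 of 66 translation circRNAs higher and 7 lower. Of the lipid circRNAs 11 of 51 were higher and 4 lower, of the hedgehog circRNAs 6 of 57 and 21, of the Wnt circRNAs 10 of 54 and 7, and of the matrix and integrin circRNAs 16 of 45 and 14. Genes may stand in several lists, and circRNAs of one gene are not independent.

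The circRNAs of a gene were called in one direction. The called circRNAs came from 750 genes, of which 372 had circRNAs called only higher, 378 only lower and none in both directions. Only the 275 genes with 2 or more called circRNAs could have been called in both. Among genes with several called circRNAs, 457 pairs from 156 genes shared no part of their genomic span, and hence no counted sequence, and all these pairs were called the same way. Of 243 genes with 4 or more tested circRNAs, every one was called higher in 21 and lower in 26. Sox5, a transcription factor of deep-layer neurons, had all 7 circRNAs higher by 2.34 to 3.27 on the log2 scale, and Nbea, a protein of synaptic membrane traffic, all 7 by 1.90 to 2.88. Gm15800 and Agap1, a regulator of Arf GTPases, each had 6 higher. On the other side Magi1 had all 9 lower, with log2 FC between -1.95 and -1.29, and Cdon all 8, between -4.12 and -3.34. The 7 circRNAs of Diap3, a formin that nucleates actin, were all lower, with log2 FC between -3.48 and -3.26. CiCo_mm9_circ_001989 among them had no count in N and is taken at its bound. All 6 of Etl4 were lower, of which 5 had no count in N. Several circRNAs of such genes overlap, so that the number of circRNAs is not a number of independent measurements.

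**Figure D5:**
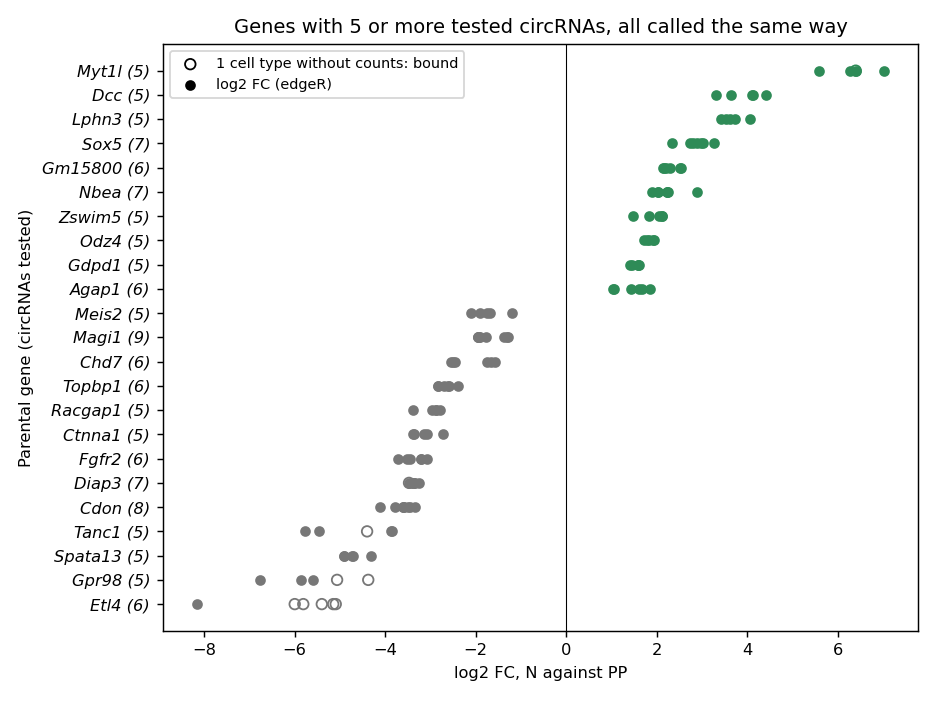
log2 FC of N against PP for each tested circRNA (filled circles) of the 23 genes with at least 5 tested circRNAs that were all called in one direction, with the number of circRNAs in parentheses. Open circles are bounds for circRNAs without a count in one of the cell types. Genes are ordered by the median of their circRNAs, from Myt1l at the top to Etl4 at the bottom, and all circRNAs of a gene lie on 1 side of 0, which was a criterion of the choice.

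Cdr1as (CiCo_mm9_circ_006933, chromosome X, 58436423 to 58439349, plus strand) is a well known circRNA of the brain and binds the microRNA miR-7. The RefSeq mature sequences (GRCm38.p6) are given to show the seed, bases 2 to 8, in capitals.
mmu-miR-7a-5p: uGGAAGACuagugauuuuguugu
mmu-miR-7b-5p: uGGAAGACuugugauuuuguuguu
Both share the seed, and its reverse complement GTCTTCC occurs 123 times on the plus strand within the 2927 bases of the mm9 span, on average once in 23.8 bases, and never on the minus strand. Of 3360 windows of that length, taken from the start of each other circRNA span at least as long, 23.3% hold the letters on the transcribed strand, at most 3 times. A match of letters is not a measured binding site. Cdr1as had 37.8, 84.8 and 27.1 CPM in PP and 37.9, 862 and 797 CPM in N (log2 FC 3.39, SE 0.73, adjusted p = 0.00311). N replicates 2 and 3 were far above PP, but N replicate 1, with 3 counts, lay within the range of the PP libraries, so that the cell types overlapped.

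Levels can be compared between circRNAs only per length, as RPKM, here CPM per kilobase of counted length. Among the circRNAs with the highest RPKM in N were those of Hnrnpa2b1 and Snrnp70, RNA-binding proteins of splicing, Eef2, the translation elongation factor, and an entry on the mitochondrial genome (CiCo_mm9_circ_006817). In PP those of Ccdc107, Hnrnpa2b1, the mitochondrial entry and Pea15a were among the highest. Hnrnpa2b1 had 17693 ± 11932 RPKM in PP and 22747 ± 14061 RPKM in N (SD, n = 3), with 4847, 3909 and 12688 CPM in PP and 15660.1, 5022 and 6887 CPM in N, and was not called (adjusted p = 0.625 in edgeR's test). The mitochondrial entry had 938, 730.0 and 5213 CPM in PP and 2907, 1004 and 1054 CPM in N and was not called (adjusted p = 0.639). Most of these abundant circRNAs spread widely between the replicates of one cell type. Ccdc107 had 2117, 1498 and 11334 CPM in PP and 177, 1597 and 911 CPM in N and was called lower (log2 FC -2.44, SE 0.76, adjusted p = 0.0271), a call that rested on PP replicate 3 (log2 FC -0.94, adjusted p = 0.2 without it) and was lost without N replicate 1 (log2 FC -1.97, adjusted p = 0.147) and N replicate 3 (log2 FC -2.43, adjusted p = 0.0916). Its N libraries overlapped the PP libraries. Snrnp70 was higher in N, with 113, 141 and 217 CPM in PP and 1782, 404 and 384 CPM in N (log2 FC 2.44, SE 0.58, adjusted p = 0.00592). The size of this change, and of its mean RPKM in N, rested largely on N replicate 1, although the other N libraries were above PP too. Pea15a, an adaptor of MAP kinases in glia, was lower, with 832, 749 and 1747 CPM in PP and 379, 125 and 138 CPM in N (log2 FC -2.47, SE 0.47, adjusted p = 0.00122). Eef2 was not called (log2 FC 0.34, SE 0.30, adjusted p = 0.437), but was higher in N without PP replicate 3 and N replicate 1 (log2 FC 0.61, adjusted p = 0.00907).

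The counted length differed little between the classes, while genes and flanking introns were longest for circRNAs higher in N. The median counted length was 556 bases for circRNAs higher in N, 555 for those lower and 518 for those not called, and the median number of exons was 3 in each class. The genes of circRNAs higher in N had a median length of 142 kb, against 91.6 kb for those lower and 79.4 kb for those not called. The intron upstream of the backsplice had a median length of 12.6 kb for circRNAs higher in N, 6.54 kb for those lower and 6.47 kb for those not called, and the intron downstream 8.87, 5.19 and 4.77 kb. The first circularized exon was exon 2 of the transcript for 30.2% of circRNAs higher in N, 24.9% of those lower and 30.3% of those not called. All called circRNAs were flanked by AG before their start and GT after their end, the splice signals, and 99.97% of those not called. The detection of backsplices may itself have required these signals, so these shares are no result about the classes. The lengths, exon numbers and exon positions are descriptions of the classes, to which no test was applied since circRNAs of a gene share introns.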

How the data were processed

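The authors sorted PP, DP and N from the cortex of reporter embryos, digested RNA with RNase R and sequenced directional libraries single-end. According to the submitters' notes and the methods of the study, reads were mapped to mm9, circRNAs were detected by their backsplice, exons and introns of each above an RPKM threshold were kept, and reads over these features were counted with featureCounts (Subread 1.6.0). The deposited values are raw counts for 5281 circRNAs in 9 libraries, with a counted length for each. No column of another sample was present (0 columns).

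The 27 entries named in the results were left out before scaling. Counts were tested with edgeR 4.0.16 in R 4.3.3 (TMM, filterByExpr, robust quasi-likelihood F-test) in 1 model over the 9 libraries, with the contrast of N minus PP and Benjamini-Hochberg adjusted p under 0.05. The model shares 1 estimate of the spread over PP, DP and N, and it has no replicate block. Parental genes and exons came from GENCODE vM1 on the mm9 assembly, with exons numbered where both ends of a circRNA matched exon ends. The circRNAs of Lfng, Snrnp70 and Ccdc107 have other ends within the gene in sense and are named by that gene. CPM used the effective library sizes, and RPKM divided CPM by the counted length in kilobases. For a cell type with 1 to 3 counts, a ratio with an exact 95% counting interval is given in place of a fitted FC. Such intervals, like the floors, reflect counting error alone.

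The members and the gene lists were chosen with earlier results of these data known. Named circRNAs were, for each direction, the 15 with the largest FC among called circRNAs at or above the median level (log2(CPM + 1) of 6.90 for the mean over all 9 libraries, DP included) without overlap between libraries, up to 3 per list and direction by p, the 5 with the highest RPKM in each cell type, genes with 4 or more tested circRNAs all called one way, and Cdr1as. The text gives values for part of these, and some items that met the rules are not reported here. Lists are described by counts and medians without a set test. The pipeline was tested on simulated data for N versus PP with 5254 circRNAs, in 2 runs, and recovered 76.6% and 81.1% of tested 4-fold changes and 15.2% and 14.1% of 2-fold changes, with 4.44% and 5.49% of calls false. Most of the simulated 2-fold changes were thus missed. The simulation drew each circRNA independently, with 1 shared spread in PP, DP and N and no library standing apart. In the measured data the spread differed between the cell types and overlapping circRNAs shared reads, so these rates need not hold there. Alternatives were DESeq2 1.42.0, other scalings, filters, thresholds and samples, and each library left out in turn. Figures were drawn with matplotlib 3.10.9 in Python 3.11.15.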

Additional observations from a re-analysis of the deposited data

How the results depend on the processing

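In none of the 22 alternatives was a called circRNA called in the opposite direction. DESeq2 called 657 higher and 663 lower in N, RLE size factors 631 and 641, and scaling by total counts 557 and 721. Numbers moved more under other settings. With at least 10 counts in every library (1236 circRNAs tested), 158 were higher and 115 lower, from 179 genes. With N and PP libraries only (3506 tested), 412 were higher and 372 lower, from 473 genes, and 61.1% of the calls were kept. The biological coefficient of variation was 0.414 within PP, 0.332 within N and 0.122 within DP, and 0.295 in the fit over all 9 libraries, so that the shared spread is smaller than that of either cell type compared. With 1 circRNA per gene, 339 and 361. With all entries kept and total counts, 210 were higher and 439 lower, from 389 genes. Without PP replicate 3 and N replicate 1, 1053 were higher and 979 lower, from 1162 genes. With each library left out in turn, 483 to 850 were higher and 494 to 793 lower, from 611 to 948 genes. Keeping 1 of each set of identical entries, chosen after seeing the data, left 627 and 656.

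Whether equal replicate numbers mark the same embryos or the same sort is not stated, and the libraries were treated as unpaired. Deviations of same-numbered PP and N libraries correlated by between -0.18 and 0.23. For libraries with different numbers the range was -0.26 to 0.25. The pairs are few, and the libraries that stood apart from their replicates dominate the deviations. These values therefore cannot show whether the samples were paired. With the replicate block, 555 were higher and 551 lower, from 651 genes, and 1102 calls were shared with the fit without it. Fbln1 lost its call under the block (adjusted p = 0.0872 in edgeR's test).

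Of 149 called circRNAs that met the rules for naming, 111 kept their call in every alternative that tested them. Some uncalled ones changed sign. With all entries kept and total counts, the log2 FC was -0.0383 for Hnrnpa2b1 and -0.236 for Ddr1. With 1 library left out it ranged from -0.24 to 1.08 for Hnrnpa2b1 and from -0.303 to 0.585 for Ddr1, turning negative without N replicate 1 for both. For the mitochondrial CiCo_mm9_circ_006817 it ranged from -1.12 to 0.98, turning positive without PP replicate 3, and was 0.36 without PP replicate 3 and N replicate 1. The cause was not tested. At the depth of these libraries 865 circRNAs had too few counts to be tested.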

Other observations

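CircRNAs without exon ends of a gene in sense were few. Of 49 tested with other ends within a gene in sense, 7 were higher in N and 9 lower, near the shares of all tested circRNAs (14.3% and 14.9%). Of 16 tested intergenic circRNAs 6 were higher and 4 lower in N, and of 7 antisense to an annotated gene 2 were higher and 1 lower. By chromosome, 19.5% of 344 tested circRNAs on chromosome 5 were higher in N and 9.01% lower, whereas on chromosome 13, with 133 tested, 7.52% were higher and 22.6% lower, and on chromosome 14, with 157 tested, 10.8% were higher and 22.3% lower. These chromosomes were picked after their values were seen, circRNAs of one gene are counted separately, and no test was made.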
